A study of Homo sapiens with 24 samples.

Results

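EGFR, ERBB3, the ligands HBEGF, TGFA, and AREG, and the inhibitor ERRFI1 belong to the ERBB (epidermal growth factor receptor) system. They were taken by their gene symbol from a table of read counts per gene. Of the 6 genes, 5 were among the 14493 genes of the table, and TGFA was not analysed here. The counts came from 24 RNA-seq libraries in 8 groups of 3 replicates, all of SKBR3 (SKBr3 in the labels), a breast cancer cell line of human origin with amplified ERBB2. In 6 groups the cells were given a drug used to bring on therapy-induced senescence (TIS), a state of growth arrest. They received new drug at day 3 and were harvested at day 7. The drugs were ND-646, an inhibitor of acetyl-CoA carboxylase (ACC), at 250 nmol/L, TVB-3166, an inhibitor of fatty acid synthase (FASN), at 250 nmol/L, the DNA-breaking agent bleomycin at 10 μmol/L, doxorubicin, a topoisomerase II poison, at 10 nmol/L, the CDK4/6 inhibitor palbociclib (written Palboclib in the labels) at 1 μmol/L, and the Aurora A kinase inhibitor alisertib at 500 nmol/L. In the study's own staining, only a minority of SKBR3 cells at these ND-646 and TVB-3166 doses carried senescence-associated β-galactosidase, a senescence marker. No drug was given in the remaining 2 groups, harvested at day-0, the proliferative control, and at day-7, sequenced to account for the time in culture. The labels give a refeed at day 3 for the drug groups and none for the untreated day-7 cells. If these had none, drug and refeed cannot be told apart in comparisons with untreated cells. All groups are of a single cell line, and the labels do not say whether the replicates of a group were separate cultures, so p-values measure only the spread between these libraries.

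ERBB receptors sit in the plasma membrane and signal as pairs. EGFR binds a family of ligands that are made as membrane proteins and cut loose by ADAM proteases. ERBB3 binds neuregulins, has little kinase activity of its own, and signals mainly when paired with another receptor, above all ERBB2, which has no known ligand. Active receptors feed the RAS-ERK and PI3K-AKT pathways, and ERK signaling induces genes that damp it, among them ERRFI1 (MIG6), which binds and blocks the EGFR kinase domain, and the dual-specificity phosphatase and Sprouty families. HBEGF and AREG are growth factors known to be secreted in wound repair and by some senescent cells.

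Total counts per library ranged from 29405121 to 44316330. Mitochondrial mRNA took 1.22% to 10.0% of the counts, and the day-0 replicate 1 library, at 8.01%, stood apart from the other day-0 libraries, at 1.22% and 1.51%. The number of the 5 genes called against day-0 cells was the same without that library in each of the 7 comparisons. The ND-646 replicate 1 library also stood apart from the other ND-646 libraries, and for the 5 genes values without it are given where it decided a result. For the other pathway genes named below, values without it are not given. Of 11 markers of the cell line, 10 were in the table, and CDH3 was not analysed here. ERBB2 was at 5121 to 8827 CPM (counts per 1000000 counts of a library, after TMM scaling). The lowest was TFAP2B, at 0.213 to 4.43 CPM. The markers in the table summed to 19652 to 22634 CPM in day-0 cells. Sums were 12862 to 16448 CPM in bleomycin, 13926 to 16180 in doxorubicin, 16153 to 16884 in palbociclib, and 16171 to 17607 in alisertib cells. They were 16972 to 19753 CPM in day-7, 14598 to 22848 in ND-646, and 17575 to 21256 in TVB-3166 cells. Among markers of other cells, 1 of 7 for fibroblasts (COL1A1), 1 of 6 for leukocytes (CD68), and 2 of 4 for endothelium (CDH5 and VWF) were in the table. The endothelial sum, mostly CDH5, was 27.3 to 45.2 CPM in bleomycin, 38.9 to 47.8 CPM in doxorubicin, and 38.9 to 45.8 CPM in palbociclib cells, against 4.91 to 7.26 CPM in day-0 cells and 6.34 to 14.1 CPM in the other drug groups. CD68 was 42.0 to 54.5 CPM in ND-646, 25.6 to 30.3 CPM in TVB-3166, and 34.3 to 56.4 CPM in bleomycin cells, against 4.20 to 6.08 CPM in day-0 cells. COL1A1 stayed between 6.43 and 15.3 CPM in every library. The part of these genes in the results was not tested.

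The genes lie on 5 different chromosomes of GRCh37. EGFR (gene ID 1956) spans chr7:55086710-55279321 on the plus strand, and ERBB3 (2065) spans chr12:56470583-56497289 on the plus strand. HBEGF (1839) spans chr5:139712428-139726188 on the minus strand, AREG (374) spans chr4:75310853-75320722 on the plus strand, and ERRFI1 (54206) spans chr1:8064464-8086369 on the minus strand. AREG has a near-identical copy, AREGB, at chr4:75480629-75490486, whose sequence matched 1234 bases of an AREG transcript with 1 difference (99.92% identity). Reads of the copy may have been counted as AREG or lost, so AREG values are uncertain. Each of EGFR and ERRFI1 overlaps an antisense long non-coding RNA, and ERBB3 overlaps a gene model on its own strand. These overlapping genes were not analysed here, and since the strand used in counting is not given in the sources used here, reads of a gene and its antisense partner cannot be told apart.

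Promoter sequences are shown here because EGFR and HBEGF rose together in bleomycin and doxorubicin cells whereas AREG did not. They are the 250 bases before the RefSeq transcription start, 5′ to 3′ on the strand of the gene, on GRCh38.p14, for the 4 of the 5 genes with an entry. EGFR (chr7:55018767-55019016, plus strand, the first of 2 listed starts), HBEGF (chr5:140346604-140346853, minus strand), ERRFI1 (chr1:8026310-8026559, minus strand), and AREG (chr4:74444886-74445135, plus strand) follow, with searched motifs in capitals.
EGFR promoter: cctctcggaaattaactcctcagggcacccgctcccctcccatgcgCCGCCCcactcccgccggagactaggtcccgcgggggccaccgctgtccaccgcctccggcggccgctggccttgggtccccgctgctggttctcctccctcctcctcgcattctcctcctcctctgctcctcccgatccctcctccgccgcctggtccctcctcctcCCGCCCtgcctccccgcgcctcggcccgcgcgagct
HBEGF promoter: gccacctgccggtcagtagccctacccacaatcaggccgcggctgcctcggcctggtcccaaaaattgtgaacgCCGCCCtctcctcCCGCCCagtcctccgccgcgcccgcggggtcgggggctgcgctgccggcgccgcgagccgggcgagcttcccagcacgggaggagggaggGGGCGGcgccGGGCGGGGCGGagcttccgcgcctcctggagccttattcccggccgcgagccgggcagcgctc
ERRFI1 promoter: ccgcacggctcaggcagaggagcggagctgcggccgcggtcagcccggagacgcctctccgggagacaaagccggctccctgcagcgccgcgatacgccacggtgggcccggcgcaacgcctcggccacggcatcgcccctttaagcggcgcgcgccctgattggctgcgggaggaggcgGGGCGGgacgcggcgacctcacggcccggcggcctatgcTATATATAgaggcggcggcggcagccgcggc
AREG promoter: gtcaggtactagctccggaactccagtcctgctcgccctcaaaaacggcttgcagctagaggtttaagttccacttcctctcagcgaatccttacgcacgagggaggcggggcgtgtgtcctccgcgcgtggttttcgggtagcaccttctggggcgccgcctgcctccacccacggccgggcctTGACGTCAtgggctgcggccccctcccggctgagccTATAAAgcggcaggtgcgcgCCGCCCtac
Motifs were searched on both strands among 35116 RefSeq promoter windows. The GC box GGGCGG, found in 42.6% of all windows, occurred 5 times in HBEGF, 2 times in EGFR, and 1 time each in ERRFI1 and AREG, and 2 of the HBEGF copies overlap. The TATA box TATAAA (10.7% of windows) was in AREG alone of the 4, with its first base 29 bases before the start, and the TATA repeat TATATA (3.73%) was in ERRFI1, in overlapping copies that begin 31 and 29 bases before the start. The cyclic AMP response element TGACGTCA (1.65%) was in AREG, 65 bases before the start. None of the 4 windows held the AP-1 site TGANTCA (6.57%), an NF-κB site (1.73%), or the sterol regulatory element TCACNCCAC (0.883%). GC content was 76.4% in HBEGF, 75.2% in ERRFI1, 73.6% in EGFR, and 65.2% in AREG.

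Against day-0 cells, 4 of the 5 genes rose in bleomycin cells, where 24.1% of all genes tested rose, and 4 rose in doxorubicin cells, with 23.7% of all genes rising. Both sets were EGFR, ERBB3, HBEGF, and ERRFI1. In TVB-3166 cells 3 rose (ERBB3, AREG, and ERRFI1), beside 27.4% of all genes, and in palbociclib cells 3 rose (EGFR, ERBB3, and ERRFI1), beside 26% of all genes. In ND-646 cells 2 rose (ERBB3 and ERRFI1), beside 19.1% of all genes. In alisertib cells HBEGF rose and the other 4 did not pass the test, beside 17.7% of all genes. A gene is said to have risen or fallen where its adjusted p-value in edgeR's quasi-likelihood test was under 0.05.

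In 5 of the 6 drug groups the genes that rose over day-0 cells also rose over untreated day-7 cells. These were 4 genes in bleomycin cells (22.4% of all genes rose), 4 in doxorubicin cells (21.9%), 3 in TVB-3166 cells (25.4%), 3 in palbociclib cells (22%), and 2 in ND-646 cells (17.2%). In alisertib cells EGFR fell and the other 4 genes did not pass (9.55% of all genes rose and 9.49% fell). Between untreated day-7 and day-0 cells 0 of the 5 genes passed the test in edgeR, with 1 at an unadjusted p-value under 0.05 (EGFR) and 0 in DESeq2, beside 0.389% of all genes rising and 0.198% falling. The comparisons with one reference share its 3 libraries, so they are not independent of each other. A second rule asked for a fold-change of at least 2 at an unadjusted p-value under 0.05. The study used such cut-offs on DESeq2 results against day-0 cells. Here they were applied to edgeR results, so the genes called can differ from the study's. Over day-0 cells EGFR and HBEGF rose by it in bleomycin cells and HBEGF in doxorubicin cells. None of the 5 genes did in the other groups. By this rule 11.5% of all genes rose in bleomycin, 10% in doxorubicin, 11.4% in ND-646, 10.9% in TVB-3166, 10.5% in palbociclib, and 6.47% in alisertib cells. Over day-7 cells HBEGF alone of the 5 rose by this rule, in bleomycin (8.49% of all genes) and doxorubicin cells (7%), beside 8.74% of all genes in ND-646, 7.24% in TVB-3166, 6.51% in palbociclib, and 2.54% in alisertib cells.

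**Figure D1:**
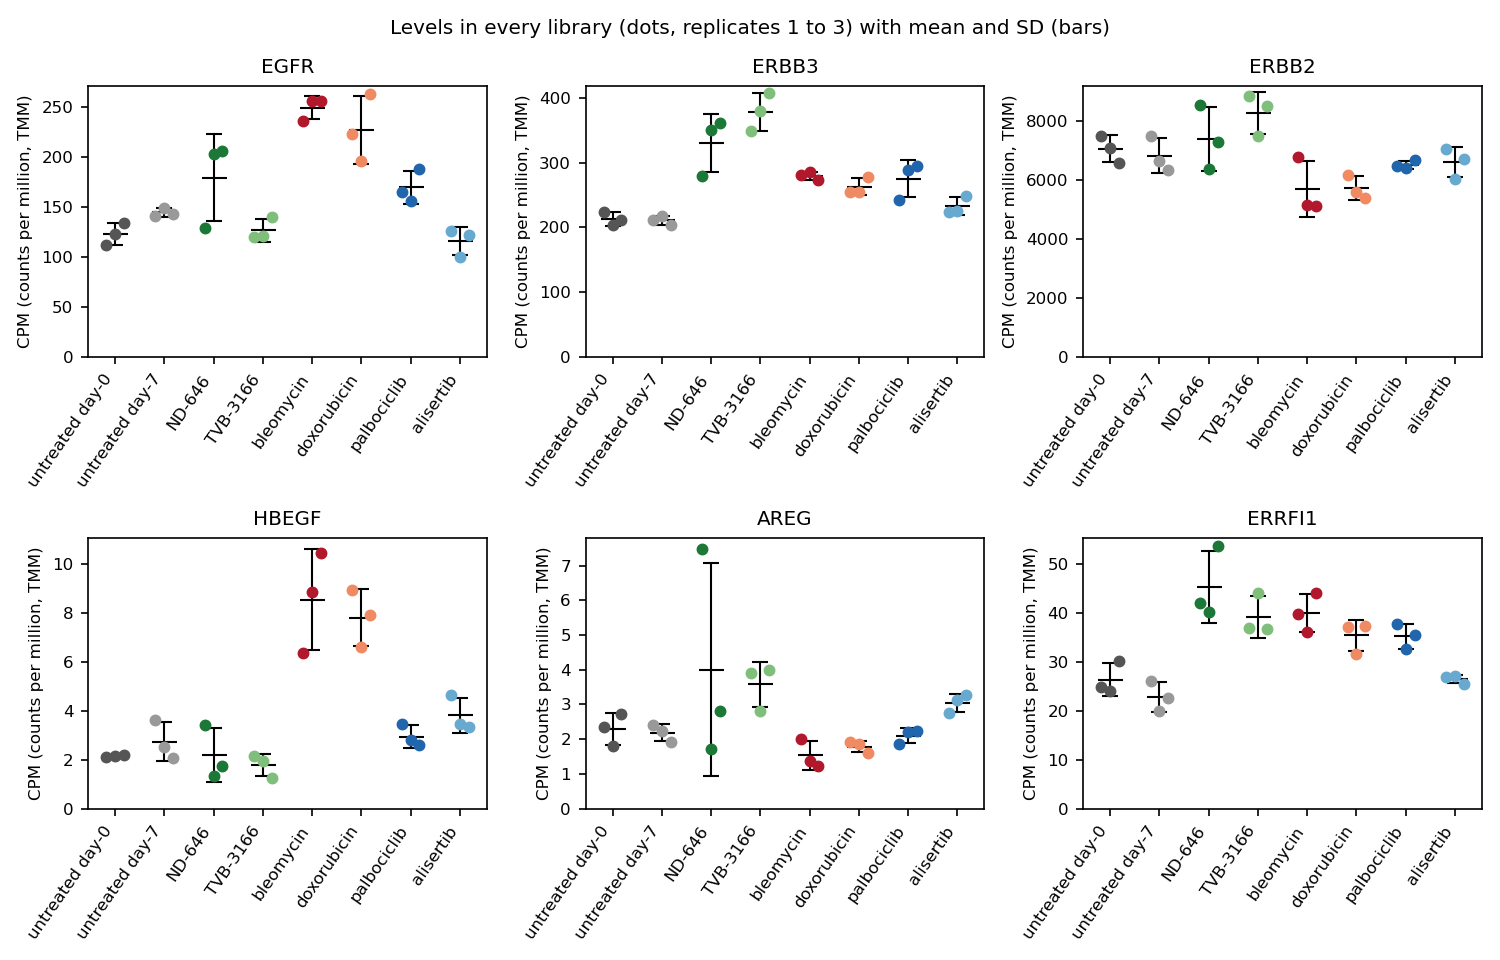
Levels of the 5 genes and of ERBB2 in CPM on linear axes that start at 0, with 1 dot per library and bars for the mean and SD of 3 libraries, in the order untreated day-0, untreated day-7, ND-646, TVB-3166, bleomycin, doxorubicin, palbociclib, and alisertib. All 6 bleomycin and doxorubicin libraries lie above every other library for HBEGF (6.36 to 10.5 CPM), and all 3 TVB-3166 libraries lie above those of bleomycin, doxorubicin, palbociclib, and alisertib cells for ERBB3 (348 to 407 CPM).

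EGFR, the receptor of HBEGF and AREG, had its highest group means in the cells treated with the DNA-damaging drugs. In bulk libraries more cells with a transcript and more transcript per cell cannot be told apart. Its levels in replicates 1, 2, and 3 were 112, 123, and 134 CPM in day-0 cells and 141, 149, and 143 CPM in day-7 cells. They were 236, 256, and 256 CPM in bleomycin cells and 222, 196, and 263 CPM in doxorubicin cells. Neither drug group overlapped with either untreated group. EGFR was 249 ± 11.5 CPM (SD, n = 3) in bleomycin cells against 123 ± 10.9 CPM in day-0 cells, a 2.04-fold rise (log2 fold-change 1.03, SE 0.11, adjusted p = 0.000103), and 1.74-fold above day-7 cells (adjusted p = 0.000161). In doxorubicin cells the rise was 1.86-fold (log2 fold-change 0.90, SE 0.12, adjusted p = 0.000307) against day-0 cells and 1.60-fold (adjusted p = 0.000256) against day-7 cells.

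In palbociclib cells EGFR was 165, 156, and 188 CPM, above all 6 untreated libraries. This was a 1.38-fold rise over day-0 cells (log2 fold-change 0.47, SE 0.10, adjusted p = 0.00356) and a 1.18-fold rise over day-7 cells (adjusted p = 0.0372). The latter did not pass with any 1 of 4 libraries left out (day-7 replicates 1 and 3 and palbociclib replicates 1 and 3, log2 fold-changes 0.16 to 0.26, adjusted p = 0.0608 to 0.143), nor with all 24 libraries in one fit (adjusted p = 0.214). In alisertib cells EGFR was 126, 99.6, and 122 CPM, within the range of day-0 cells apart from replicate 2, and below all 3 day-7 libraries. It was 1.24-fold lower than in day-7 cells (log2 fold-change -0.31, SE 0.09, adjusted p = 0.0331) and did not differ beyond the spread from day-0 cells (-0.09, 95% interval -0.33 to 0.15). The fall did not pass with all 24 libraries in one fit (adjusted p = 0.173) or without any 1 of 4 libraries (day-7 replicates 2 and 3 and alisertib replicates 2 and 3, log2 fold-changes -0.35 to -0.21, adjusted p = 0.0599 to 0.10).

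The ACC and FASN inhibitors gave different EGFR values. In ND-646 cells EGFR was 129, 203, and 206 CPM, so that replicate 1 lay among the day-0 libraries and replicates 2 and 3 above every untreated library. The change against day-0 cells did not pass (log2 fold-change 0.54, SE 0.20, adjusted p = 0.0610), but it passed in DESeq2 (0.53, adjusted p = 0.0469) and with all 24 libraries in one fit (0.55, adjusted p = 0.00239). Without ND-646 replicate 1 it was 0.73 with an adjusted p = 0.000370, and against day-7 cells it moved from 0.31 (adjusted p = 0.238) to 0.50 (adjusted p = 0.000337). In TVB-3166 cells EGFR was 119.95, 121, and 140.2 CPM, inside the range of day-0 cells apart from replicate 3 and below day-7 cells. The log2 fold-changes were 0.05 (95% interval -0.18 to 0.28) against day-0 cells and -0.18 (adjusted p = 0.0873) against day-7 cells, the latter passing without TVB-3166 replicate 3 (-0.26, adjusted p = 0.0275). Between TVB-3166 and ND-646 cells the difference did not pass (-0.49, adjusted p = 0.289) in the 2-group fit. It did pass with all 24 libraries in one fit (-0.50, adjusted p = 0.0306) and, in the 2-group fit, without ND-646 replicate 1 (-0.68, adjusted p = 0.00210).

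ERBB3, the neuregulin receptor that pairs with ERBB2, rose in 5 of the 6 drug groups, and its highest levels were in the 2 groups with blocked fatty acid synthesis. Untreated cells held 224, 203, and 211 CPM at day-0 and 211, 217, and 204 CPM at day-7. TVB-3166 cells held 348, 379.7, and 407 CPM, and ND-646 cells held 279, 349.8, and 361 CPM. All 6 of these libraries lay above all 6 untreated ones. ERBB3 was 378 ± 29.4 CPM in TVB-3166 cells against 213 ± 10.5 CPM in day-0 cells (SD, n = 3), a 1.78-fold rise (log2 fold-change 0.84, SE 0.10, adjusted p = 4.01e-05), and 1.80-fold above day-7 cells (adjusted p = 1.14e-05).

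ND-646 cells, at 330 ± 44.6 CPM, had a 1.54-fold rise in ERBB3 over day-0 cells (log2 fold-change 0.63, SE 0.16, adjusted p = 0.0129) and a 1.56-fold rise over day-7 cells (adjusted p = 0.00914). The rise over day-0 cells rested on 4 of its 6 libraries, since leaving out day-0 replicate 2 or 3 or ND-646 replicate 2 or 3 left log2 fold-changes of 0.56 to 0.62 with adjusted p = 0.0511 to 0.0680. The rise over day-7 cells did not pass without day-7 replicate 3 (0.62, adjusted p = 0.0580). Bleomycin cells held 280.1, 285, and 273 CPM, doxorubicin cells 255, 255, and 278 CPM, and palbociclib cells 242, 288, and 294 CPM, above all untreated libraries. Their rises over day-0 cells were 1.32-fold (adjusted p = 0.00675), 1.24-fold (adjusted p = 0.0127), and 1.29-fold (adjusted p = 0.00917). The doxorubicin rise did not pass without day-0 replicate 2 (log2 fold-change 0.28, adjusted p = 0.0572) or doxorubicin replicate 3 (0.28, adjusted p = 0.0507). Alisertib cells, at 224, 226, and 249 CPM, overlapped with day-0 cells (log2 fold-change 0.13, adjusted p = 0.269).

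Compared directly, ERBB3 was higher in TVB-3166 cells than in bleomycin, palbociclib, doxorubicin, and alisertib cells. The difference was 1.36-fold against bleomycin (log2 0.44, adjusted p = 0.00645), 1.38-fold against palbociclib (0.46, adjusted p = 0.00290), 1.44-fold against doxorubicin (0.53, adjusted p = 0.000403), and 1.63-fold against alisertib (0.70, adjusted p = 7.14e-05), with no overlap between libraries. Among all genes, 14.1% were higher in TVB-3166 than in bleomycin, 20% than in palbociclib, 21.6% than in doxorubicin, and 19.1% than in alisertib cells. ND-646 cells were higher than alisertib cells (1.41-fold, adjusted p = 0.0341, with 12.5% of all genes higher), whereas their differences from bleomycin (adjusted p = 0.367), palbociclib (adjusted p = 0.239), and doxorubicin cells (adjusted p = 0.130) did not pass. With all 24 libraries in one fit the latter pair did pass, at adjusted p = 0.0318 and 0.00857. In that fit the bleomycin difference passed without ND-646 replicate 1 (log2 difference 0.34, adjusted p = 0.00585). Between TVB-3166 and ND-646 cells 0 of the 5 genes passed in edgeR's 2-group fit, with 1 at an unadjusted p-value under 0.05 (EGFR, which passed in the fits named above) and 0 in DESeq2. In edgeR's 2-group fit 0.52% of all genes were higher in TVB-3166 and 0.198% were lower. For ERBB3 the log2 difference was 0.20 with a 95% interval of -0.13 to 0.53.

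ERBB2, the partner of both receptors, did not pass against day-0 cells in any drug group (log2 fold-changes -0.30 to 0.24, adjusted p = 0.0924 to 0.851). It ranged from 6568 to 7485 CPM in day-0 cells and from 7481 to 8827 CPM in TVB-3166 cells. Parts of ERBB2 overlap PGAP3 and MIEN1 on the other strand, and their reads cannot be told apart. TVB-3166 cells were 1.22-fold above day-7 cells (adjusted p = 0.0362) and above bleomycin, alisertib, doxorubicin, and palbociclib cells (log2 differences 0.54, 0.33, 0.53, and 0.34 and adjusted p = 0.0250, 0.0227, 0.00168, and 0.0230). ERBB4, the remaining receptor of the family, passed against neither reference upward in any drug group, and fell against day-7 cells in 2 groups.

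HBEGF, which binds EGFR and ERBB4, ran from 1.26 to 10.5 CPM over the 24 libraries. Day-0 cells held 2.11, 2.14, and 2.19 CPM and day-7 cells 3.64, 2.52, and 2.08 CPM. Bleomycin cells held 6.36, 8.88, and 10.5 CPM, and doxorubicin cells 8.95, 6.61, and 7.92 CPM. No library of any other group reached these values. The rise in bleomycin cells was 4.0-fold over day-0 cells (log2 fold-change 2.0, SE 0.23, adjusted p = 0.000169) and 3.13-fold over day-7 cells (1.65, SE 0.26, adjusted p = 0.00124). In doxorubicin cells it was 3.67-fold (1.88, SE 0.18, adjusted p = 5.16e-05) and 2.88-fold (1.53, SE 0.21, adjusted p = 0.000165). The fewest HBEGF counts in a library were 37, in TVB-3166 cells, and the fewest in bleomycin or doxorubicin cells were 189, so counting error adds to the spread at the low levels.

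Alisertib cells held 4.65, 3.47, and 3.36 CPM of HBEGF, above the day-0 libraries and overlapping with those of day-7. HBEGF rose 1.77-fold over day-0 cells (log2 fold-change 0.82, SE 0.21, adjusted p = 0.0108), and the difference from day-7 cells did not pass (0.48, 95% interval -0.04 to 1.00, adjusted p = 0.176). Palbociclib cells held 3.47, 2.79, and 2.60 CPM, with a log2 fold-change of 0.46 against day-0 cells (adjusted p = 0.0945). ND-646 cells held 3.44, 1.36, and 1.75 CPM, and TVB-3166 cells 2.14, 1.96, and 1.26 CPM, and neither passed against day-0 cells (log2 fold-changes 0.01 and -0.26, 95% intervals -0.80 to 0.82 and -0.81 to 0.30). ND-646 replicate 1 again stood apart, and without it HBEGF was lower in ND-646 than in day-7 cells (-0.83, adjusted p = 0.0377), against -0.35 (adjusted p = 0.516) with all 3 libraries.

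Direct comparison separated the DNA-damaging drugs from the other 4 for HBEGF. Bleomycin cells were 4.76-fold above TVB-3166 cells (adjusted p = 0.000318), 3.96-fold above ND-646 cells (adjusted p = 0.0184), 2.90-fold above palbociclib cells (adjusted p = 0.00176), and 2.27-fold above alisertib cells (adjusted p = 0.0040). Doxorubicin cells were 4.36-fold above TVB-3166 (adjusted p = 8.96e-06), 3.63-fold above ND-646 (adjusted p = 0.00704), 2.65-fold above palbociclib (adjusted p = 0.000535), and 2.08-fold above alisertib cells (adjusted p = 0.00136). The alisertib difference did not pass without alisertib replicate 2 or 3 or doxorubicin replicate 1 when all other libraries were in one fit (log2 differences 0.93 to 0.97, adjusted p = 0.0622 to 0.0681). The same direction passed for EGFR in 6 of these 8 pairs. Bleomycin cells were 1.96-fold above TVB-3166 (adjusted p = 0.000136), 2.18-fold above alisertib (adjusted p = 0.000139), and 1.47-fold above palbociclib cells (adjusted p = 0.00336). Doxorubicin cells were 1.79-fold above TVB-3166 (adjusted p = 6.24e-05), 1.98-fold above alisertib (adjusted p = 0.000102), and 1.34-fold above palbociclib cells (adjusted p = 0.0200). The last of these had an adjusted p = 0.0515 with all 24 libraries in one fit, and in that fit it did not pass without any 1 of the doxorubicin replicates 1 and 3 and the 3 palbociclib replicates (adjusted p = 0.0549 to 0.242). EGFR in ND-646 cells did not differ from bleomycin (adjusted p = 0.161) or doxorubicin cells (adjusted p = 0.254) in the 2-group fits, and the former passed with all 24 libraries in one fit (adjusted p = 0.0156). With 1 library left out of that fit, the doxorubicin difference passed without ND-646 replicate 2 or 3 or doxorubicin replicate 2 (adjusted p = 0.0254 to 0.0313). In these comparisons the genes higher in bleomycin cells were 14.4% of all genes against TVB-3166, 4.63% against ND-646, 15.9% against palbociclib, and 19.5% against alisertib cells, and those higher in doxorubicin cells were 22.9%, 13.3%, 13.4%, and 13.2%. Between bleomycin and doxorubicin cells 0 of the 5 genes differed in edgeR, 0 had an unadjusted p-value under 0.05, and 0 passed in DESeq2, beside 5.53% of all genes higher in doxorubicin and 6.54% lower.

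AREG, a ligand of EGFR alone, was expressed at a similarly low level and moved differently from HBEGF. Day-0 cells held 2.36, 1.79, and 2.72 CPM and day-7 cells 2.42, 2.23, and 1.93 CPM. TVB-3166 cells held 3.91, 2.82, and 4.0 CPM, above all 6 untreated libraries, a 1.56-fold rise over day-0 cells (log2 fold-change 0.64, SE 0.24, adjusted p = 0.0383) and 1.63-fold over day-7 cells (0.71, SE 0.21, adjusted p = 0.0148). The rise over day-0 cells did not pass without day-0 replicate 2, TVB-3166 replicate 1, or TVB-3166 replicate 3 (log2 fold-changes 0.49 to 0.57, adjusted p = 0.106 to 0.132), nor with all 24 libraries in one fit (adjusted p = 0.118). The rise over day-7 cells did not pass without day-7 replicate 3 or TVB-3166 replicate 3 (adjusted p = 0.0618 and 0.0627) or in the fit of all libraries (adjusted p = 0.0988). ND-646 cells held 7.48, 1.72, and 2.81 CPM, so that 1 library set the group mean. The log2 fold-change against day-0 cells was 0.78 (95% interval -0.33 to 1.89) and, without that library, -0.024. Against day-7 cells it was 0.85 (adjusted p = 0.210), it passed with all 24 libraries in one fit (0.86, adjusted p = 0.0390), and without ND-646 replicate 1 it was 0.036.

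Bleomycin cells held 2.02, 1.37, and 1.22 CPM of AREG, doxorubicin cells 1.92, 1.85, and 1.60 CPM, palbociclib cells 1.85, 2.22, and 2.24 CPM, and alisertib cells 2.77, 3.12, and 3.28 CPM. None of the 4 passed against day-0 cells (adjusted p = 0.130, 0.246, 0.680, and 0.167). Against day-7 cells AREG was lower in bleomycin cells without bleomycin replicate 1 (log2 fold-change -0.76, adjusted p = 0.0448), and with all 3 libraries it was -0.50 (adjusted p = 0.149). In direct comparison AREG was higher in TVB-3166 cells than in bleomycin (2.33-fold, adjusted p = 0.00906), doxorubicin (1.99-fold, adjusted p = 0.00266), and palbociclib cells (1.70-fold, adjusted p = 0.0149), and the difference from alisertib cells did not pass (1.17-fold, adjusted p = 0.377). The palbociclib difference had an adjusted p = 0.0974 with all 24 libraries in one fit. With any 1 of the 6 libraries left out of that fit it did not pass either (adjusted p = 0.0899 to 0.230). The doxorubicin difference did not pass there without any 1 of 5 libraries, TVB-3166 replicate 2 being the exception (adjusted p = 0.0599 to 0.0942), nor the bleomycin difference without bleomycin replicate 3 (adjusted p = 0.0549). The fewest AREG counts in a library were 40.

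**Figure D2:**
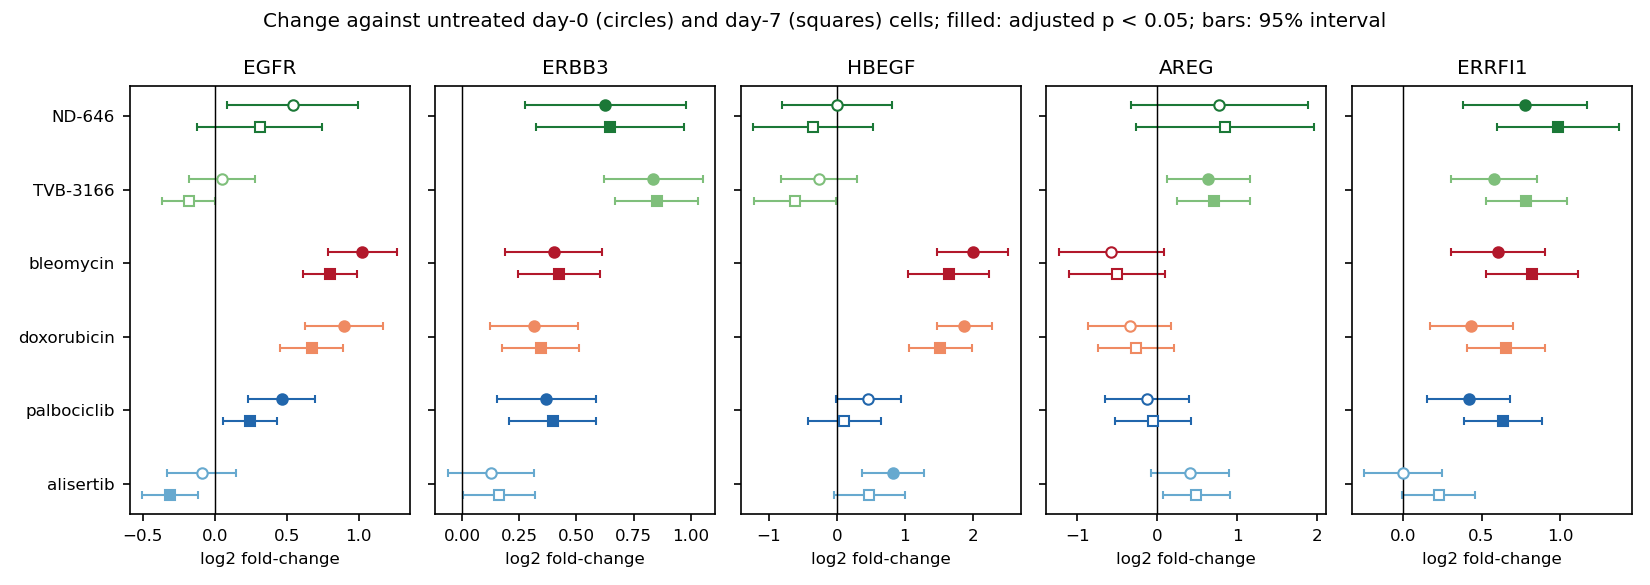
Log2 fold-changes of the 5 genes in each drug group against untreated day-0 cells (circles) and untreated day-7 cells (squares), with 95% intervals as bars and filled symbols for adjusted p under 0.05, 3 libraries per group. The HBEGF symbols of bleomycin and doxorubicin cells lie from 1.53 to 2.0, the ERBB3 and ERRFI1 symbols are filled for both references in 5 of the 6 drug groups, and the panels have different horizontal scales.

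ERRFI1, the feedback inhibitor of EGFR, rose in the same 5 groups as ERBB3. Untreated cells held 24.9, 23.9, and 30.2 CPM at day-0 and 26.0, 19.8, and 22.5 CPM at day-7. ND-646 cells held 41.9, 40.2, and 53.6 CPM, TVB-3166 cells 36.8, 44.1, and 36.6 CPM, and bleomycin cells 39.7, 36.0, and 43.9 CPM. Doxorubicin cells held 37, 31.6, and 37.3 CPM and palbociclib cells 37.6, 32.5, and 35.4 CPM. All 15 of these libraries lay above all 6 untreated ones and above the alisertib libraries, at 26.9, 27.0, and 25.5 CPM.

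Against day-0 cells ERRFI1 rose 1.71-fold in ND-646 (log2 fold-change 0.77, SE 0.17, adjusted p = 0.00798), 1.49-fold in TVB-3166 (adjusted p = 0.00219), 1.52-fold in bleomycin (adjusted p = 0.00432), 1.35-fold in doxorubicin (adjusted p = 0.0127), and 1.34-fold in palbociclib cells (adjusted p = 0.0131). Against day-7 cells the rises were 1.98-fold, 1.72-fold, 1.77-fold, 1.58-fold, and 1.55-fold, with adjusted p = 0.00305, 0.000243, 0.00116, 0.000744, and 0.00104. The doxorubicin rise over day-0 cells did not pass without day-0 replicate 2 (0.37, adjusted p = 0.0529) or doxorubicin replicate 1 (0.39, adjusted p = 0.0626), and the palbociclib rise did not pass without palbociclib replicate 1 (0.36, adjusted p = 0.0575). In alisertib cells the log2 fold-change against day-0 cells was 0.00 (95% interval -0.24 to 0.25). ERRFI1 was lower in alisertib cells than in ND-646 (1.70-fold, adjusted p = 0.00733), TVB-3166 (1.48-fold, adjusted p = 0.000608), bleomycin (1.52-fold, adjusted p = 0.00207), doxorubicin (1.35-fold, adjusted p = 0.00478), and palbociclib cells (1.34-fold, adjusted p = 0.00394). In palbociclib cells 13.4% of all genes were higher than in alisertib cells. With all other libraries in one fit, the doxorubicin difference did not pass without any 1 of 5 libraries (doxorubicin replicate 2 being the exception, adjusted p = 0.0659 to 0.128), nor the palbociclib difference (palbociclib replicate 2 being the exception, adjusted p = 0.0602 to 0.102).

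The order of the group means differed from gene to gene. For EGFR it was bleomycin, doxorubicin, ND-646, palbociclib, day-7, TVB-3166, day-0, and alisertib cells, and of the 7 neighbouring pairs only palbociclib and day-7 cells differed (adjusted p = 0.0372). For HBEGF it was bleomycin, doxorubicin, alisertib, palbociclib, day-7, ND-646, day-0, and TVB-3166 cells, with 1 step that passed, between doxorubicin and alisertib cells (adjusted p = 0.00136). For ERRFI1 it was ND-646, bleomycin, TVB-3166, doxorubicin, palbociclib, alisertib, day-0, and day-7 cells, with 1 step that passed, between palbociclib and alisertib cells (adjusted p = 0.00394). For ERBB3 the order was TVB-3166, ND-646, bleomycin, palbociclib, doxorubicin, alisertib, day-0, and day-7 cells, and for AREG it was ND-646, TVB-3166, alisertib, day-0, day-7, palbociclib, doxorubicin, and bleomycin cells. No neighbouring pair passed for these 2 genes in edgeR or in DESeq2, with 1 at an unadjusted p-value under 0.05 for ERBB3 (doxorubicin and alisertib cells) and 0 for AREG.

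Levels of different genes were compared per length, as CPM per kilobase of annotated exon. In day-0 cells ERBB2 was at 683, ERBB3 at 18.2, EGFR at 7.70, ERRFI1 at 6.30, AREG at 1.40, and HBEGF at 0.718 CPM per kilobase. The receptors thus stood above both ligands in every group. In bleomycin cells EGFR reached 15.6 and HBEGF 2.86 CPM per kilobase, above AREG at 0.936. In TVB-3166 cells ERBB3 reached 32.3 and AREG 2.18 CPM per kilobase, above HBEGF at 0.598. The order of the 2 ligands on this scale was HBEGF over AREG in bleomycin and doxorubicin cells and AREG over HBEGF in the other 6 groups.

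**Figure D3:**
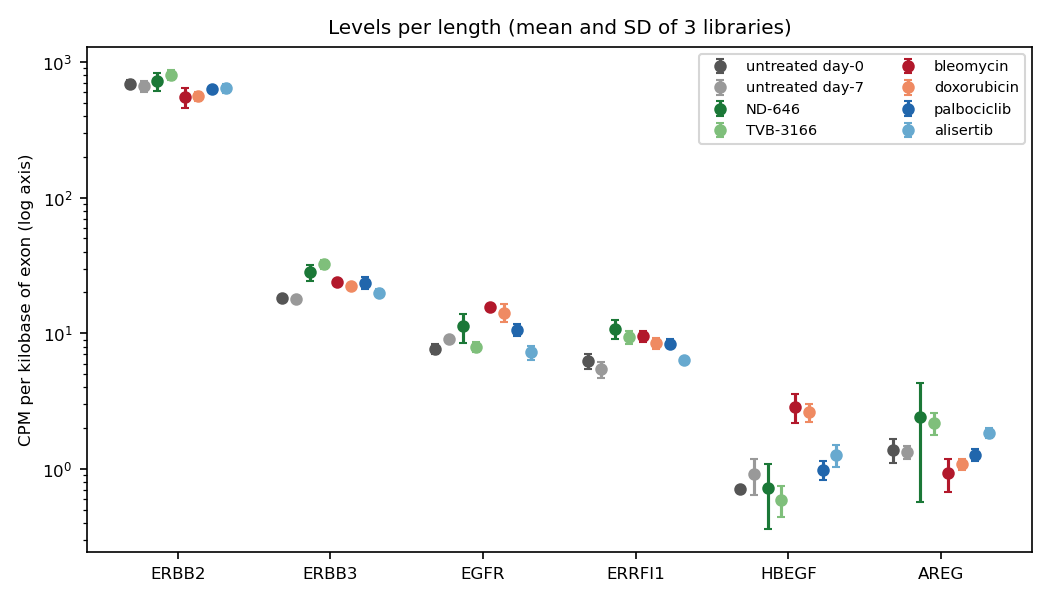
Levels per length of ERBB2, ERBB3, EGFR, ERRFI1, HBEGF, and AREG in CPM per kilobase of exon on a log axis, as the mean (dots) and SD (bars) of 3 libraries in each of the 8 groups. In day-0 cells the genes run from 683 for ERBB2 down to 0.718 for HBEGF, and HBEGF lies above AREG in bleomycin and doxorubicin cells.

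The other genes of the pathway were taken from a list of 78 genes by role, which includes the 5 genes above. The list was chosen with earlier results of these data known. Its counts and medians thus describe the list and are not a test of the pathway. Of the 78 genes, 69 were in the table and 68 could be tested against day-0 cells. The numbers that rose and fell were 42 and 7 in doxorubicin, 38 and 6 in bleomycin, 38 and 5 in palbociclib, 36 and 8 in TVB-3166, 29 and 7 in ND-646, and 19 and 7 in alisertib cells. Among all genes tested, 23.7% rose and 24.8% fell in doxorubicin, 24.1% and 25.3% in bleomycin, and 26% and 27.2% in palbociclib cells. The shares were 27.4% and 27.7% in TVB-3166, 19.1% and 18.8% in ND-646, and 17.7% and 19.6% in alisertib cells. The median log2 fold-change of the list was 0.58 in ND-646, 0.49 in bleomycin, 0.45 in doxorubicin, 0.42 in palbociclib, 0.38 in TVB-3166, and 0.18 in alisertib cells, beside medians of all genes from -0.0078 to 0.018. In day-7 against day-0 cells none of the 68 passed in edgeR, 18 had an unadjusted p-value under 0.05, and 5 passed in DESeq2, and the median was 0.10. Over day-7 cells 36 of 68 genes rose in bleomycin (22.4% of all genes) and 34 of 68 in doxorubicin cells (21.9%). In TVB-3166 cells 35 of 67 rose (25.4%), in palbociclib cells 32 of 67 (22%), and in ND-646 cells 28 of 67 (17.2%). In alisertib cells 12 of 68 rose and 3 fell over day-7 cells, beside 9.55% of all genes rising and 9.49% falling. The changes of pathway genes that follow are against day-0 cells unless day-7 cells are named.

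Among the ligands, EGF, the founding ligand of EGFR, rose in all 6 drug groups against both references. Its level went from 28.6 CPM in day-0 cells to 109 CPM in ND-646 cells (3.81-fold, adjusted p = 4.60e-05), 107 CPM in TVB-3166 cells (3.76-fold, adjusted p = 3.17e-07), and 89.8 CPM in palbociclib cells (3.14-fold, adjusted p = 1.64e-06). EPGN (epigen), another EGFR ligand, rose in 5 groups, by 3.71-fold in alisertib cells (adjusted p = 6.20e-05) and 2.93-fold in ND-646 cells (adjusted p = 0.000705), and in bleomycin cells its log2 fold-change was 0.52 (adjusted p = 0.0904). BTC (betacellulin), a ligand of EGFR and ERBB4, rose in 4 groups, by 2.30-fold in TVB-3166 cells (adjusted p = 0.00125) and 2.47-fold in palbociclib cells (adjusted p = 0.000628). NRG2, a neuregulin, rose in doxorubicin cells (2.04-fold, adjusted p = 0.0203), from 0.597 CPM in day-0 cells to 1.20 CPM. Its fewest counts in a day-0 library were 17, so counting error weighs on this value. The ligands TGFA, EREG, NRG1, NRG3, and NRG4 were not analysed here. HBEGF rose in 3 groups and AREG in 1.

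Of 8 genes of ligand shedding and processing, 5 rose and 1 fell in each of ND-646, TVB-3166, bleomycin, and palbociclib cells, 6 rose and 1 fell in doxorubicin cells, and 2 rose in alisertib cells. Among all genes 17.7% (alisertib) to 27.4% (TVB-3166) rose and 18.8% (ND-646) to 27.7% (TVB-3166) fell. ADAM17, the main sheddase of HBEGF, AREG, and TGFA, rose in 4 groups, by 1.80-fold in bleomycin (adjusted p = 0.00533), 1.79-fold in doxorubicin (adjusted p = 0.00438), 1.70-fold in ND-646 (adjusted p = 0.0210), and 1.51-fold in palbociclib cells (adjusted p = 0.0126). In TVB-3166 cells it had a log2 fold-change of 0.29 (adjusted p = 0.136). ADAM9 rose in all 6 groups over day-0 cells and in 4 over day-7 cells (all but bleomycin and alisertib), over day-0 cells by 2.05-fold in ND-646 (adjusted p = 0.00745) and 1.96-fold in palbociclib cells (adjusted p = 0.000246). RHBDL2, a rhomboid protease, rose in 5 groups, by 2.40-fold in bleomycin cells (adjusted p = 0.00104). RHBDF1 (iRhom1), which helps bring ADAM17 to the cell surface, rose in 4 groups. In TVB-3166 cells its log2 fold-change was 0.90 (adjusted p = 1.94e-05). ADAM15 fell in 5 groups, by 2.32-fold in ND-646 cells (adjusted p = 0.000744) and 1.67-fold in bleomycin cells (adjusted p = 0.00278).

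Of 12 genes listed under receptor-level inhibitors and ubiquitin ligases, ERRFI1 included, 9 rose in palbociclib, 8 in bleomycin, 8 in doxorubicin, 6 in TVB-3166, 4 in ND-646, and 2 in alisertib cells. The list also holds the deubiquitinase USP8, which rose in 1 group. Beside these, 17.7% (alisertib) to 27.4% (TVB-3166) of all genes rose. CBLB, a ubiquitin ligase, rose in 5 groups, by 2.63-fold in ND-646 (adjusted p = 0.00373) and 2.54-fold in bleomycin cells (adjusted p = 0.00161). CBL, which ubiquitinates active EGFR, rose in 4 groups, by 2.01-fold in bleomycin cells (adjusted p = 0.000635). LRIG1, a membrane protein that lowers receptor levels, rose in 5 groups, by 2.34-fold in TVB-3166 cells (adjusted p = 4.15e-06), and in bleomycin cells its log2 fold-change was 0.04 (adjusted p = 0.818). LRIG2, of the same family, rose in 3 groups. Its log2 fold-change was 0.92 in TVB-3166 (adjusted p = 0.00536) and 0.98 in doxorubicin cells (adjusted p = 0.0105). RNF41 (NRDP1), a ubiquitin ligase that acts on ERBB3, rose in 5 groups, by 1.57-fold in ND-646 cells (adjusted p = 0.00752).

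Among the roles, the RAS-ERK feedback inhibitors had the largest share of risen genes over day-0 cells in 5 of the 6 groups, alisertib being the exception, where 4 of 6 ligands rose. Over day-7 cells ligands led in doxorubicin (5 of 6, against 8 of 10 feedback inhibitors) and alisertib cells (3 of 6, against 4 of 10). Of 10, 9 rose over day-0 cells in bleomycin, 9 in doxorubicin, 9 in palbociclib, 8 in TVB-3166, 7 in ND-646, and 5 in alisertib cells, and 1 (DUSP5) fell in alisertib cells. Among all genes, 17.7% (alisertib) to 27.4% (TVB-3166) rose over day-0 cells, and 19.6% fell in alisertib cells. Over day-7 cells 9.55% (alisertib) to 25.4% (TVB-3166) of all genes rose. DUSP6, a phosphatase of ERK, went from 1.85 CPM in day-0 cells to 19.9 CPM in ND-646 cells (10.7-fold, adjusted p = 2.21e-05), 14.9 CPM in TVB-3166 cells (8.06-fold, adjusted p = 5.73e-07), and 6.35 CPM in bleomycin cells (3.44-fold, adjusted p = 0.000933). DUSP6, DUSP4, SPRY1, and SPRY4 rose in all 6 groups over day-0 cells. Over day-7 cells SPRY4 rose in all 6 and the other 3 genes in 5, with log2 fold-changes of 0.67 for DUSP6 in alisertib (adjusted p = 0.161), 0.30 for DUSP4 in doxorubicin (adjusted p = 0.0657), and 0.22 for SPRY1 in palbociclib cells (adjusted p = 0.257). SPRY4, a Sprouty inhibitor, rose 4.53-fold in ND-646 (adjusted p = 2.21e-05), 4.05-fold in TVB-3166 (adjusted p = 8.30e-07), 3.25-fold in bleomycin (adjusted p = 4.90e-05), and 1.5-fold in alisertib cells (adjusted p = 0.0237). DUSP4 rose 3.29-fold in ND-646 cells (adjusted p = 4.98e-05), and SPRY1 rose 2.85-fold in TVB-3166 cells (adjusted p = 2.47e-06). SPRY2 rose in bleomycin, doxorubicin, palbociclib, and alisertib cells, and in ND-646 cells it had a log2 fold-change of 0.90 (adjusted p = 0.125). SPRED3, a Sprouty-related inhibitor, rose in 3 groups, by 3.03-fold in bleomycin cells (adjusted p = 0.00575).

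Adaptors and effectors moved in both directions, as did genes as a whole. Of 15, 2 rose and 4 fell in ND-646, 5 and 5 in TVB-3166, and 5 and 4 in bleomycin cells. In doxorubicin cells 6 rose and 4 fell, in palbociclib cells 4 and 3, and in alisertib cells 2 and 2. Among all genes 19.1% rose and 18.8% fell in ND-646, 27.4% and 27.7% in TVB-3166, and 24.1% and 25.3% in bleomycin cells. The shares were 23.7% and 24.8% in doxorubicin, 26% and 27.2% in palbociclib, and 17.7% and 19.6% in alisertib cells. Median log2 fold-changes of the role ran from -0.11 in TVB-3166 to 0.13 in doxorubicin cells. GAB2, a docking protein of the PI3K pathway, rose in all 6 groups, by 5.44-fold in bleomycin (adjusted p = 2.68e-05) and 4.47-fold in ND-646 cells (adjusted p = 9.29e-05). SOS2, an activator of RAS, also rose in all 6, by 2.42-fold in bleomycin cells (adjusted p = 0.000161). Over day-7 cells GAB2 and SOS2 rose in 5 groups, with log2 fold-changes of 0.49 and 0.20 in alisertib cells (adjusted p = 0.0976 and 0.222). SOS1 rose over day-0 cells in 3 groups, with a log2 fold-change of 1.09 in bleomycin cells (adjusted p = 8.16e-05). PLCG1, a phospholipase, fell in 5 groups, by 1.88-fold in ND-646 cells (adjusted p = 0.0185). EPS8, an EGFR substrate, fell in 3 groups, by 0.83 on the log2 scale in ND-646 cells (adjusted p = 0.00924). PIK3R2, a subunit of PI3K, fell in 4 groups, by 0.85 on that scale in doxorubicin cells (adjusted p = 0.000200).

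Of 13 tested genes listed as transcription factors of the pathway or as other genes induced through ERK, 8 rose and 2 fell in ND-646 cells. The numbers were 7 and 2 in TVB-3166, 7 and 1 in bleomycin, 6 and 2 in doxorubicin, 6 and 1 in palbociclib, and 4 and 4 in alisertib cells. ELK1, a transcription factor of the list, fell in 5 of these groups. The shares of all genes were 17.7% (alisertib) to 27.4% (TVB-3166) rising and 18.8% (ND-646) to 27.7% (TVB-3166) falling. PHLDA1, a pleckstrin-homology protein, rose in 5 groups, by 6.05-fold in bleomycin (adjusted p = 0.000204) and 5.98-fold in ND-646 cells (adjusted p = 6.82e-05), and in alisertib cells its log2 fold-change was -0.17 (adjusted p = 0.626). ETV4, a transcription factor induced by ERK, rose in 5 groups. The rise was 5.23-fold in ND-646 cells (adjusted p = 5.12e-05) and 3.23-fold in bleomycin cells (adjusted p = 0.000275). ATF3, a stress-induced factor, rose in all 6 groups against both references, over day-0 cells by 4.97-fold in bleomycin cells (adjusted p = 0.000144). The immediate-early genes FOS and EGR1 rose in ND-646 cells (3.25-fold and 1.93-fold, adjusted p = 0.00197 and 0.0338) and fell in alisertib cells (2.42-fold and 6.09-fold, adjusted p = 0.0217 and 0.000141). In all, FOS rose in 2 groups and fell in 1, and EGR1 rose in 1 and fell in 2. Over day-7 cells FOS rose in ND-646 cells (3.00-fold, adjusted p = 0.00506), whereas EGR1 did not pass there (log2 fold-change 0.37, adjusted p = 0.580), and both fell in alisertib cells (2.59-fold and 9.05-fold, adjusted p = 0.0329 and 0.00135).

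**Figure D4:**
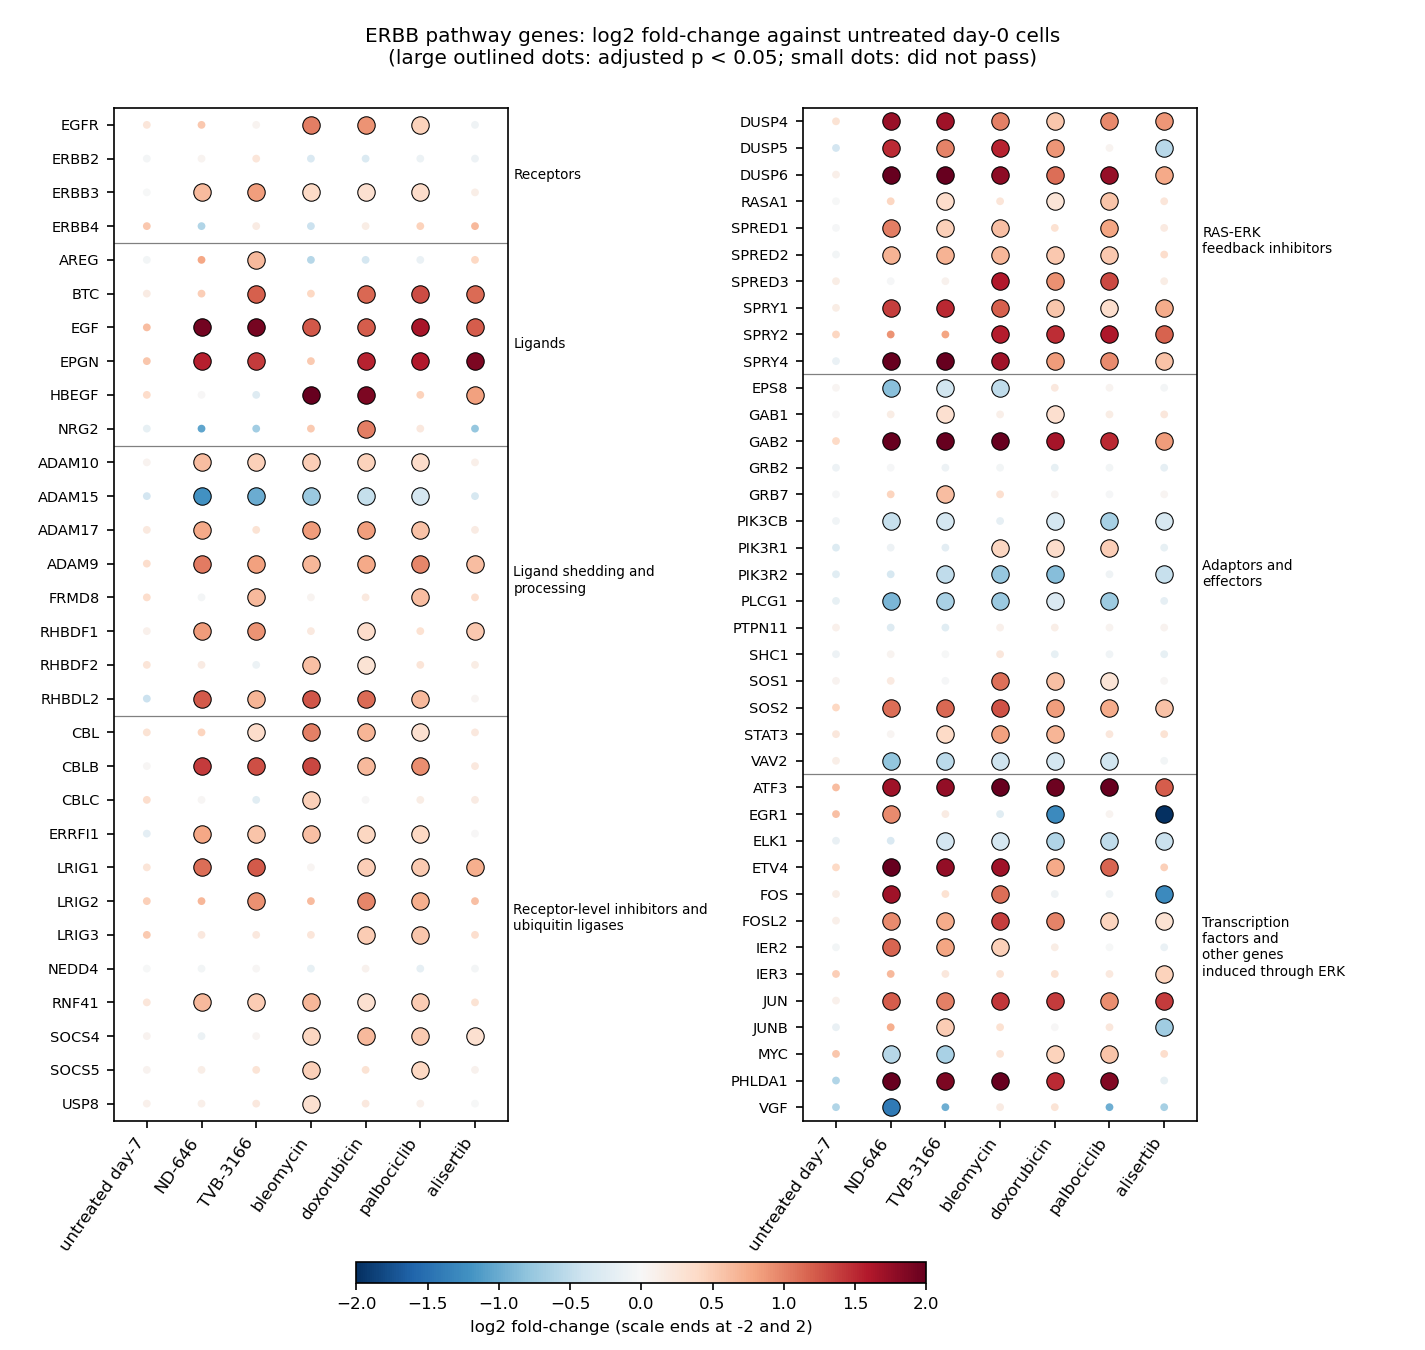
Log2 fold-changes against untreated day-0 cells (colour, from -2 in blue to 2 in red) of 68 pathway genes by role, in untreated day-7 cells and the 6 drug groups, with large outlined dots for adjusted p under 0.05 and small dots for the rest. The day-7 column holds no outlined dot, and of the 10 feedback inhibitors 5 to 9 have an outlined red dot in each drug group. Of all genes, 17.7% (alisertib) to 27.4% (TVB-3166) rose in these groups.

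Across the 24 libraries, the level of ERBB3 went most with that of ERRFI1 among the 10 pairs of the 5 genes (Pearson's r = 0.777, Spearman's rho = 0.754), followed by EGFR with HBEGF (r = 0.593, rho = 0.476), and EGFR with AREG went in opposite directions (r = -0.643, rho = -0.711). These are descriptions over log2 CPM of 24 libraries that include 3 replicates of each group, and each pair was read from the same libraries. Of 12461 genes with at least 10 counts in every library, the 3 most like EGFR were JAG1, a Notch ligand (r = 0.936), B4GALT5 (0.920), and CTTNBP2NL (0.920). For ERBB3 they were RASEF (0.938), the chloride-proton exchanger CLCN3 (0.933), and DENND11 (0.933). For HBEGF they were QPCT (0.914), the complement protease C1R (0.903), and the actin-bundling gene FSCN1 (0.887), and for AREG they were CD151 (0.860), PRDX1 (0.850), and PCYT2 (0.848). For ERRFI1 they were PHLDA1 (0.925), A2ML1 (0.906), and BHLHE40 (0.899). Ranked by Spearman's rho, DENND11, QPCT, and BHLHE40 stayed among the 3 most like their gene, and the other 12 did not.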

How the data were processed

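RNA from SKBR3 cells was sequenced in 24 libraries. The deposited values are raw read counts, as whole numbers for 14493 genes with a lowest count of 1, which the authors obtained with HISAT2 alignment to the GRCh37 genome and StringTie. The labels name a stranded mRNA kit and the study's methods a stranded total RNA kit, and the counting settings are not given in the sources used here. Each pair of groups was fitted on its own in edgeR 4.0.16 (quasi-likelihood test, 2-sided, R 4.3.3) after filterByExpr and TMM scaling, with Benjamini-Hochberg adjustment over every gene tested and a threshold of 0.05. Alternatives were DESeq2 1.42.0 and its size factors, another filter (none, or a minimum of 10 counts per library), and a single fit of the 24 libraries. Others were a replicate block, the 2-fold rule applied to edgeR results, and dropping libraries singly. Correlations used log2 CPM with a prior count of 2. An exact permutation test of 3 against 3 libraries cannot go below p = 0.1, so none was used. The code was tested on simulated counts with 200 changed genes. Totals of 29405121 to 44316330 counts per library set the counting error, which weighs most on HBEGF and AREG.

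The members and the gene lists were chosen with earlier results of these data known. Named genes are the members, ERBB2, for each role of the pathway list up to 4 genes with the largest change over day-0 cells among those that passed in ND-646 or TVB-3166 cells and up to 4 likewise in the other drug groups, and the 3 genes most correlated with each member. ERBB4 and DUSP5 were named after their values were seen. Whether replicate numbers pair the libraries was checked from their deviations from the group means. All 3 correlations were over 0.1 in 12 of 28 pairs of groups, among them none with day-0 cells, 3 with day-7 cells, and 9 pairs of drug groups, and the replicate block changed no call given for these. Motifs were searched in RefSeq promoter windows of GRCh38.p14, and all other coordinates are of GRCh37.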

Additional observations from a re-analysis of the deposited data

How the results depend on the processing

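Counted here were the changes of the 5 genes against untreated cells, those between TVB-3166 and ND-646 cells, and other drug pairs chosen for each gene to match the text. The remaining drug pairs were left out. Leaving aside the 2-fold rule, of 61 such changes that passed, 45 passed in every other fit run for them, and of 44 that did not pass, 31 passed in none. Under the rule of at least 2-fold at an unadjusted p-value under 0.05, the genes called against day-0 cells were 2 in bleomycin, 1 in doxorubicin, and 0 in each of the other 4 drug groups, and against day-7 cells 1, 1, and 0. With all 24 libraries in one fit 0 genes passed in alisertib against day-7 cells. Leaving out 1 library gave, against day-0 cells, 1 to 3 genes in ND-646, 2 to 3 in TVB-3166, 4 in bleomycin, 2 to 4 in doxorubicin, 2 to 3 in palbociclib, and 1 in alisertib cells, and against day-7 cells 1 to 4, 2 to 3, 4 to 5, 4, 2 to 3, and 0 to 1.

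Neighbouring pairs in the order of levels that differed were 0 for EGFR and 0 for ERRFI1 under the 2-fold rule, 0 for EGFR in the fit of all libraries, and 1 for ERBB3 under the replicate block. Leaving out 1 library from the fit of all libraries, an alternative chosen after seeing the data, gave 0 to 1 for EGFR, ERBB3, and ERRFI1, 0 to 2 for HBEGF, and 0 for AREG.

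Of the changes counted above, the direction of 12 reversed in some fit, none of which passed in either direction. HBEGF in ND-646 against day-0 cells was -0.0058 without the filter, -0.0043 in DESeq2, and -0.077 under the replicate block, and AREG in TVB-3166 against ND-646 cells was 0.063 under that block. The replicate block, where numbers were not shown to pair the libraries, also gave 0.51 (adjusted p = 0.0459, edgeR) for EGFR in ND-646 against day-0 cells and -0.61 (adjusted p = 0.0314) for HBEGF in TVB-3166 against day-7 cells. With 1 library left out, log2 fold-changes against day-0 cells ran for AREG from -0.024 to 1.14 in ND-646, -0.26 to 0.012 in palbociclib, and -0.20 to 0.074 in day-7 cells, for EGFR from -0.025 to 0.12 in TVB-3166, for ERBB3 from -0.036 to 0.032 in day-7, for ERRFI1 from -0.049 to 0.11 in alisertib, and for HBEGF from -0.47 to 0.25 in ND-646 cells. In palbociclib against day-7 cells they ran from -0.13 to 0.036 for AREG and -0.047 to 0.38 for HBEGF. In TVB-3166 against ND-646 cells they ran from -0.51 to 0.66 for AREG and -0.53 to 0.21 for HBEGF, and in doxorubicin against bleomycin cells from -0.30 to 0.038 for HBEGF.

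Pathway genes that rose over day-0 cells numbered 24 to 36 in ND-646, 30 to 39 in TVB-3166, 34 to 43 in bleomycin, 30 to 44 in doxorubicin, 30 to 40 in palbociclib, and 14 to 27 in alisertib cells under the other alternatives, and 20, 15, 22, 12, 10, and 6 under the 2-fold rule. By longest transcript, day-0 levels were 1430 (ERBB2), 34.0 (ERBB3), 12.4 (EGFR), 8.50 (ERRFI1), 1.86 (AREG), and 0.911 (HBEGF) CPM per kilobase. The cause of these changes was not tested.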
